A study of Mus musculus with 6 samples.

Results

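AP-1 is a family of basic leucine zipper (bZIP) transcription factors that bind DNA as pairs, and 9 of its genes are described here, *Jun*, *Junb*, *Jund*, *Fos*, *Fosb*, *Fosl2*, *Batf*, *Batf3*, and *Atf3*. They were chosen by name from the 57126 genes of the deposited count table, with earlier results of these data known. The gene lists set beside them were chosen in the same way, so their shares of changed genes are descriptive. RNA was sequenced from CD8+ T cells of OT-I mice, whose transgenic receptor recognizes an ovalbumin peptide. The cells came from lymph nodes and spleens and were stimulated with nano-aAPCs, iron oxide nanoparticles that carry peptide-loaded MHC-I and anti-CD28. IL-2 alone was given to the 3 TEff samples, whereas the 3 TRM-like samples also received IL-15 with TGF-β, and all were harvested on day 6. The methods name human IL-2 for the expansion and mouse IL-2 for the RNA samples, and the sources used here give neither the age of the mice nor whether replicates were separate cultures. The p-values therefore measure the spread between these samples, which may be technical. Because both added cytokines were present together in every TRM-like sample, their effects cannot be told apart.

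Jun proteins can pair with one another or with Fos proteins, whereas Fos proteins need a Jun partner. In T cells, signals from the antigen receptor and CD28 raise AP-1 within hours, partly by new transcription of *Fos* and *Jun* and partly by phosphorylation of Jun by JNK kinases. BATF proteins lack the long activation domains of Fos and Jun, pair with Jun proteins, and bind composite sites together with IRF4 or IRF8. ATF3 is a stress-induced member that represses many of its targets. Since much of AP-1 control lies in pairing and phosphorylation, an RNA level is not a measure of AP-1 activity.

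*Jun* was the member that rose in the TRM-like cells, and *Batf3* and *Atf3* fell. The other 6 members did not pass the test. A differentially expressed gene (DEG) had an adjusted p below 0.05 by edgeR's quasi-likelihood test and an absolute log2 fold change above 0.58. By this rule 3 of the 9 members were DEGs, 1 higher and 2 lower, against 3.01% of the 26154 genes tested (1.52% higher and 1.48% lower). All 9 members were among the genes tested, and 6 of them reached 10 counts in each of the samples, the exceptions being *Fosb*, *Batf3*, and *Atf3*. Of those 6 only *Jun* was a DEG, against 3.97% of the genes that reached this count. The 3 TEff and 3 TRM-like samples did not overlap in 4 of the 9 members (*Jun*, *Batf*, *Batf3*, and *Atf3*), against 20.3% of the genes tested.

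The promoters of the 3 members that changed are shown because they are where transcription of these genes starts. Their matches differ only in motifs that were added to the search after the values were seen. Each is the RefSeq window of 250 bases before and 50 bases after a start site, from a table on GRCm38.p6 whose sequences matched GRCm39 exactly once. They are written 5′ to 3′ on the strand of the gene, at chr4:94940410-94940709 (minus strand) for *Jun*, chr1:190830361-190830660 (plus strand) for *Batf3*, and chr1:190915481-190915780 (minus strand) for *Atf3*. Capitals mark motif matches.
Jun: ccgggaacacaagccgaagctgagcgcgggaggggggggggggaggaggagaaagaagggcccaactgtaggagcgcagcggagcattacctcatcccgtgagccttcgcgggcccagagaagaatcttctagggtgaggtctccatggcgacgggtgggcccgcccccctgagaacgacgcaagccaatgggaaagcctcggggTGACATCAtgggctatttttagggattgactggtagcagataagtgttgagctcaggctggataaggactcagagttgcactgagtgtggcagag
Batf3: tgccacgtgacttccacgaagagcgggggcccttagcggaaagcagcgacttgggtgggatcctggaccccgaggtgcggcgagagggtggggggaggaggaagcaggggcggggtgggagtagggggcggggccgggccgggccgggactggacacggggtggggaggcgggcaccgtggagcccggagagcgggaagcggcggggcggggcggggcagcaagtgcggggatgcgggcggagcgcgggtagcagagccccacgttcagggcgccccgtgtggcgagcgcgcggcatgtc
Atf3: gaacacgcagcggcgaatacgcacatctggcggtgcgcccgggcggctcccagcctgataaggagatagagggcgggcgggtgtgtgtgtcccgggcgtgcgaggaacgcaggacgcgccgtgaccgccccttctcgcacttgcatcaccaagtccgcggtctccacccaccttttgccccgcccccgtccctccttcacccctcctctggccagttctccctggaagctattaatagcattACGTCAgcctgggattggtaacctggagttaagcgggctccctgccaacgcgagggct
The capitals in *Jun* are TGACATCA, a variant of the AP-1 site through which Jun proteins are known to bind this promoter, and they begin at position -45 from the start. Since the site is known in this promoter, its match was fixed beforehand. This motif was found in 3.62% of 32851 mouse promoters of the same length. The capitals in *Atf3* are a shortened cAMP response element, TGACGT read on the opposite strand, beginning at position -8, and 7.51% of promoters held this motif. *Batf3* had no match to any motif searched, and 75.7% of its window was G or C, against 60% for *Jun* and 64.7% for *Atf3*. All motifs were searched on both strands. The AP-1 site TGACTCA was held by 5.2% of promoters and the full cAMP response element TGACGTCA, which contains the shortened form, by 1.79%. The CArG box of serum response factor was in 1.63%, the SMAD palindrome GTCTAGAC in 0.213%, the shorter SMAD motif CAGACA in 21%, and the TATA box motif TATAAA in 13.6%. None of the 9 members' windows held the AP-1 site, the full cAMP response element, the CArG box, or either SMAD motif. Sequence more than 250 bases before a start was not searched, so sites farther away would be missed. The *Jund* window, at chr8:71150139-71150438, lies wholly before the start of that gene as GENCODE draws it, so its letters are not those next to the annotated start. *Fos* had the TATA box motif at -33 and the shortened cAMP response element at -66, *Junb* had the TATA box motif at 1, and *Batf* had the shortened element at -98.

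Total counts were 18319013 to 21960760 per TEff sample and 21178756 to 23622621 per TRM-like sample. CPM are counts of a gene per 1000000 counts of the library, after TMM normalization, so that 1 count was 0.0436 to 0.0552 CPM. The TRM-like samples were not alike. Replicates 1 and 2 had a count on 35130 and 35559 genes, and replicate 3 on 24229, against 24235 to 24908 in the TEff samples. Over 14822 genes with 10 or more counts in each library, the mean chi-square of a gene between a pair of samples, which counting noise alone would put near 1, was 7.26 between TRM-like replicates 1 and 2 and 96.3 and 112 between each of them and replicate 3, against 3.73 to 26.1 among the TEff samples. TRM-like replicate 3 was nearer to TEff replicates 1 and 3, at 41.9 and 37.4. TEff replicate 2 was nearer to TRM-like replicates 1 and 2, at 54.3 and 68.9, than to TRM-like replicate 3, at 82.4. It was nearest to the other TEff samples, at 26.1 and 25.4. This split runs partly along the groups, and its cause was not tested. The 8 CD8 T cell markers summed to 2429 to 2615 CPM in TEff and 2801 to 4005 CPM in TRM-like samples, with *Cd8a* a DEG higher and *Cd5* a DEG lower in TRM-like cells. The 4 CD4 T cell markers summed to 35.9 to 41.4 and 18.4 to 26.0 CPM. Nearly all of that was *Zbtb7b*, a DEG with means of 38.0 and 21.5 CPM, while *Cd4* itself had 0.0689 and 0.0437 CPM. The 3 NK cell markers summed to 24.7 to 43.9 CPM in TEff and 4.75 to 22.5 CPM in TRM-like samples, and none was a DEG.

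*Jun*, whose product c-Jun is the classic Jun partner of Fos proteins, was expressed at 14.4, 24.5, and 13.7 CPM in TEff replicates 1, 2, and 3 and at 64.0, 72.7, and 54.1 CPM in TRM-like replicates 1, 2, and 3. Every TRM-like sample lay above every TEff sample, with the lowest TRM-like value in replicate 3 and the highest TEff value in replicate 2. The level was 3.62-fold higher in TRM-like cells (log2 fold change 1.86, SE 0.23, edgeR adjusted p = 0.00377). Groups that do not overlap in this direction were found for 10.6% of genes, and a log2 fold change at least this high for 4.81%. Both shares are over all genes tested, including those with few counts. Among genes with at least 10 counts in each sample, as *Jun* had, 2.04% were DEGs higher in TRM-like cells. *Jun* remained a DEG in each of the 15 alternatives, with a log2 fold change of 1.72 to 2.17. The gene (ENSMUSG00000052684) lies at chr4:94937271-94940459 on the minus strand of GRCm39, inside the antisense gene *Junos*. *Junos* had 15, 24, and 7 counts in TEff and 46, 65, and 26 in TRM-like samples (log2 fold change 1.39, edgeR adjusted p = 0.189), while *Jun* had 248 to 484 and 1174 to 1663. The strand setting of the counting is not stated, so reads of the overlapping genes cannot be told apart.

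*Junb*, a Jun protein with weaker transactivation than c-Jun and a partner of BATF in T cells, was measured at 76.5, 82.3, and 76.7 CPM in TEff and 85.2, 109, and 59.1 CPM in TRM-like samples. The TRM-like samples spread on both sides of the TEff samples, with replicate 3 lowest and replicate 2 highest of all 6. Its log2 fold change was 0.11 (SE 0.21, 95% interval -0.36 to 0.57, edgeR adjusted p = 0.864). Without TRM-like replicate 2 the sign turned, to -0.13, and without TRM-like replicate 3 it was 0.30 (edgeR adjusted p = 0.0990). *Junb* (ENSMUSG00000052837, chr8:85701113-85705359, minus strand) overlaps the end of *Prdx2*, which did not pass the test either (edgeR adjusted p = 0.916).

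*Jund*, the Jun gene known for steady expression in resting cells, had 83.9, 81.9, and 98.7 CPM in TEff and 93.7, 109, and 87.7 CPM in TRM-like samples. The groups overlapped, and the log2 fold change was 0.14 (SE 0.14, 95% interval -0.19 to 0.46, edgeR adjusted p = 0.725). *Jund* (ENSMUSG00000071076) is at chr8:71151599-71153265 on the plus strand.

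**Figure D1:**
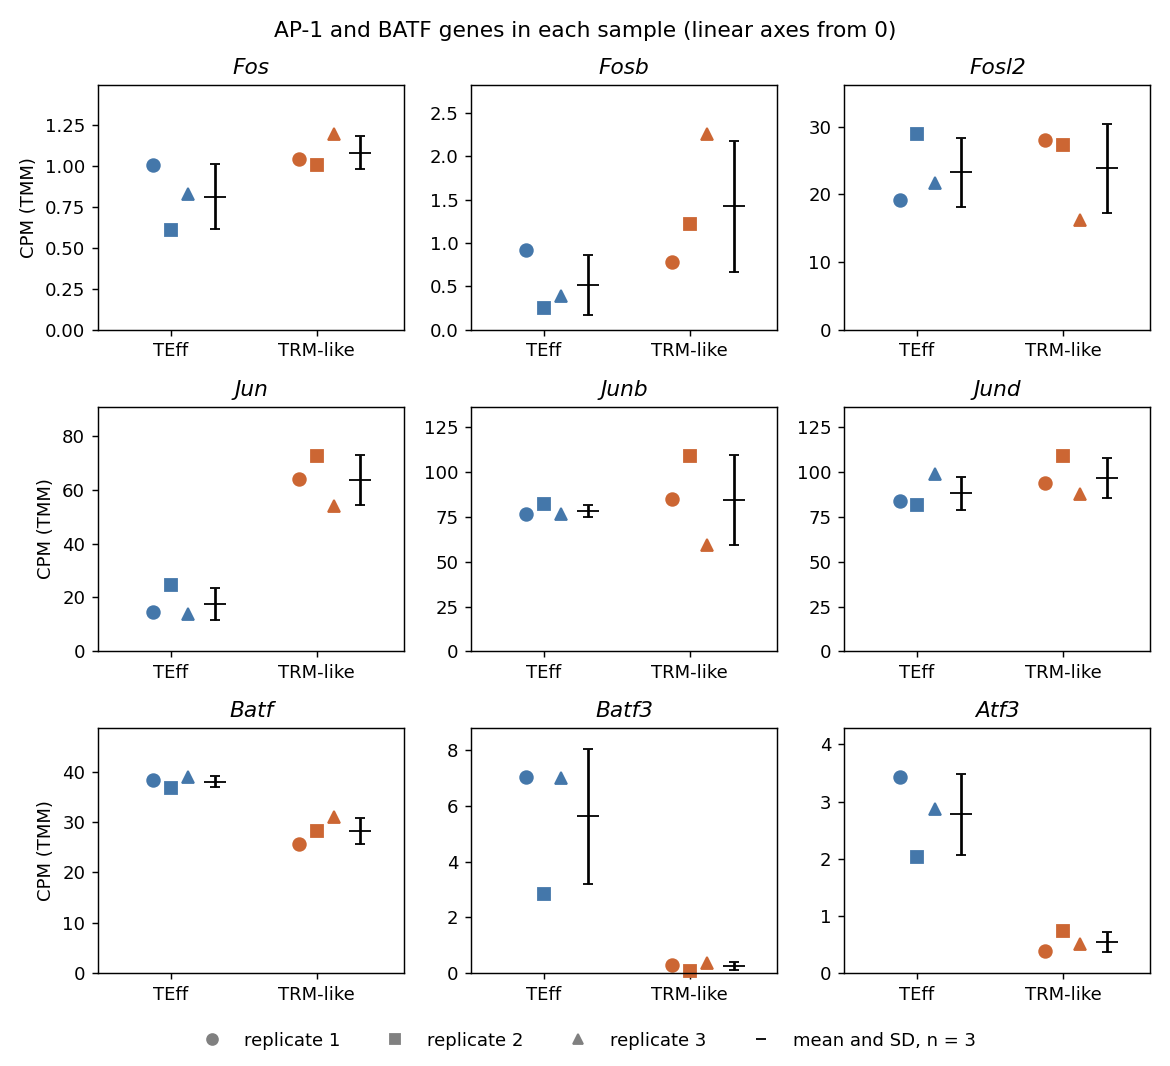
Each panel plots the CPM of a member on a linear axis from 0 for TEff (blue) and TRM-like (orange) samples, with replicates 1, 2, and 3 as circles, squares, and triangles and the mean with its SD (n = 3) in black. *Jun* was at 54.1 to 72.7 CPM in TRM-like samples against 13.7 to 24.5 CPM in TEff samples. *Batf3* was near 0 in TRM-like samples, and *Atf3* was at 0.392 to 0.743 CPM there against 2.02 to 3.43 CPM in TEff samples. *Batf* was lower in TRM-like samples without overlap.

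Among Fos genes, none passed the test, and *Fos* and *Fosb* had few counts. *Fos*, the prototype immediate early gene, had 22, 12, and 15 counts in TEff and 24, 23, and 26 counts in TRM-like samples, or 1.01, 0.607, and 0.829 CPM against 1.05, 1.00, and 1.20 CPM. The groups nearly parted, since only TEff replicate 1 reached TRM-like replicate 2. The log2 fold change was 0.40 (SE 0.32, 95% interval -0.32 to 1.13, edgeR adjusted p = 0.627). *Fos* (ENSMUSG00000021250) is at chr12:85520658-85524047 on the plus strand.

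*Fosb*, another immediate early Fos gene, had 20, 5, and 7 counts in TEff and 18, 28, and 49 counts in TRM-like samples (0.914, 0.253, and 0.387 CPM against 0.785, 1.22, and 2.26 CPM). TEff replicate 1 lay above TRM-like replicate 1, and TRM-like replicate 3 was the highest. Its log2 fold change was 1.42 (SE 0.55, 95% interval 0.18 to 2.65), with an unadjusted p of 0.0291 and an edgeR adjusted p of 0.267. With a sample left out it ranged from 0.90 (without TRM-like replicate 3) to 2.144 (without TEff replicate 1), and it was not called in any of these fits. With no filter on low counts it was called (edgeR adjusted p = 0.0208). *Fosb* (ENSMUSG00000003545) is at chr7:19036621-19043976 on the minus strand.

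*Fosl2*, which encodes Fra-2, was the Fos gene with the most counts, at 19.1, 28.9, and 21.7 CPM in TEff and 28.0, 27.3, and 16.2 CPM in TRM-like samples. The groups overlapped throughout, with TEff replicate 2 highest and TRM-like replicate 3 lowest. The log2 fold change was 0.036 (SE 0.24, 95% interval -0.50 to 0.57, edgeR adjusted p = 0.964). It turned to -0.079 without TEff replicate 1, -0.094 without TRM-like replicate 1, and -0.077 without TRM-like replicate 2. *Fosl2* (ENSMUSG00000029135) is at chr5:32292707-32315186 on the plus strand.

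*Batf*, needed for effector differentiation of CD8+ T cells, was measured at 38.3, 36.7, and 38.9 CPM in TEff and 25.7, 28.2, and 30.9 CPM in TRM-like samples. All TRM-like samples were below all TEff samples, an order seen for 9.72% of genes. The log2 fold change was -0.43 (SE 0.13, 95% interval -0.71 to -0.14), with an unadjusted p of 0.00805 and an edgeR adjusted p of 0.137, so that *Batf* was not a DEG. Without TRM-like replicate 3 the edgeR adjusted p was 0.00579, with a log2 fold change of -0.51 that did not reach the threshold of size. *Batf* (ENSMUSG00000034266) is at chr12:85733423-85755861 on the plus strand, 209 kb from *Fos* and 42.9 kb from *Jdp2*, another bZIP gene.

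*Batf3*, which is known for the development of cross-presenting dendritic cells and is also expressed by activated T cells, had 154, 56, and 127 counts in TEff and 7, 2, and 8 counts in TRM-like samples. These were 7.04, 2.83, and 7.02 CPM against 0.305, 0.0874, and 0.369 CPM. The lowest TEff sample, replicate 2, was still far above every TRM-like sample. The level was 21.8-fold lower in TRM-like cells (log2 fold change -4.45, SE 0.52, edgeR adjusted p = 0.00239), and 0.0612% of genes had a log2 fold change at least as low. The summed counts, 337 and 17, gave a ratio of 22.4 with an exact 95% interval of 13.8 to 38.9 that covers counting error only. In the 14 alternatives that tested it *Batf3* remained a DEG, with a log2 fold change of -4.81 to -4.04. *Batf3* (ENSMUSG00000026630) is at chr1:190830044-190841142 on the plus strand.

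Single markers of myeloid and dendritic cells lay at 0 to 8.96 CPM, and *Batf3* at 0.0874 to 7.04 CPM. The 13 markers summed to 10.01 to 15.9 CPM in TEff and 4.05 to 10.2 CPM in TRM-like samples. These sums overlapped narrowly, since only TRM-like replicate 1 reached the lowest TEff sum. *S100a8* and *S100a9* were at 0 in every sample, and no marker was a DEG. *Xcr1*, *Itgam*, *Cd14*, and *Cd68* were lower in every TRM-like sample than in any TEff sample, an order seen for 9.72% of all genes. *Fcgr1* was higher without overlap, an order seen for 10.6%. *Xcr1* of cross-presenting dendritic cells was measured at 1.74, 2.23, and 0.884 CPM in TEff and 0.698, 0.743, and 0.645 CPM in TRM-like samples. Its log2 fold change was -1.22 (SE 0.38, edgeR adjusted p = 0.165). *Flt3* was at 0 to 0.0506 and 0 to 0.262 CPM, with overlapping groups. The part of such cells in the *Batf3* result was not tested. In bulk samples, fewer cells of a type and less RNA per cell cannot be told apart.

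*Atf3* had 75, 40, and 52 counts in TEff and 9, 17, and 11 counts in TRM-like samples, or 3.43, 2.02, and 2.87 CPM against 0.392, 0.743, and 0.507 CPM. The groups did not overlap. The level was 5.03-fold lower in TRM-like cells (log2 fold change -2.33, SE 0.35, edgeR adjusted p = 0.00808), a change matched or exceeded by 1.01% of genes. The summed counts were 167 and 37, with a ratio of 5.10 and a counting interval of 3.56 to 7.50. *Atf3* was not a DEG without TEff replicate 1 (edgeR adjusted p = 0.0649) or TEff replicate 3 (edgeR adjusted p = 0.0571), although its log2 fold change stayed at -2.14 and -2.29. In these fits 1.04 and 1.08% of all genes were called, against 3.01% with all samples. *Atf3* (ENSMUSG00000026628) is at chr1:190902493-190950241 on the minus strand, and its promoter above lies inside these bounds.

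*Batf3* and *Atf3* are neighbours, with 61.4 kb between them on chromosome 1, and this region was chosen after their values were seen. Of 11 genes within 250 kb with a mean of at least 1 CPM over the 6 samples, those 2 were the DEGs. *Nsl1*, a kinetochore gene, was measured at 34.1, 23.3, and 34.1 CPM in TEff and 13.3, 13.8, and 32.6 CPM in TRM-like samples (log2 fold change -0.62, SE 0.34, edgeR adjusted p = 0.463). *Nenf* had a log2 fold change of 0.50 (SE 0.16, edgeR adjusted p = 0.184). The lncRNA gene *D730003I15Rik* lies 6.36 kb from the outermost annotated start of *Atf3*, and farther from the start whose promoter is shown above. Its log2 fold change was 0.018 (SE 0.26, edgeR adjusted p = 0.979).

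**Figure D2:**
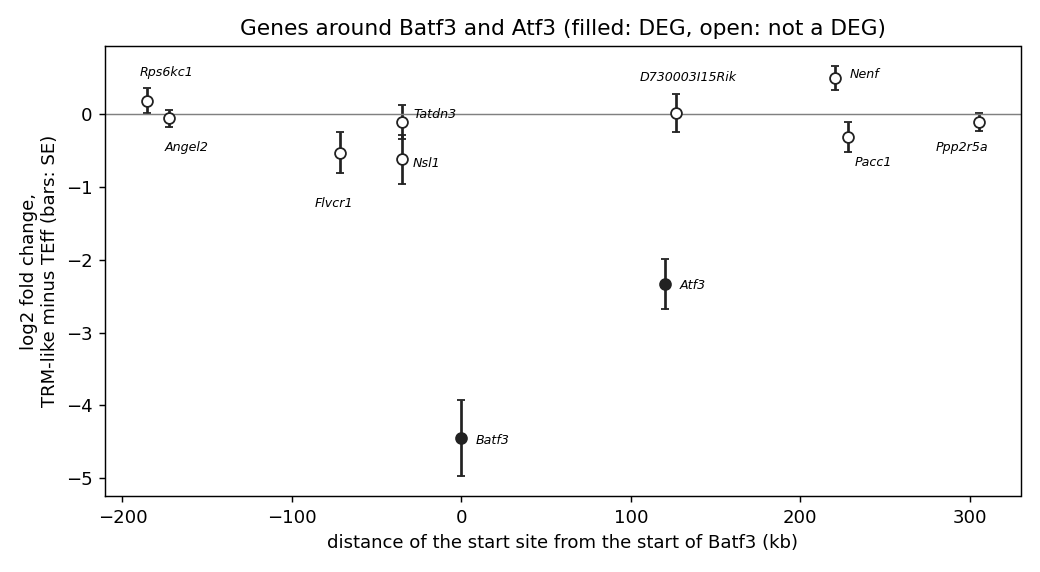
The log2 fold change of TRM-like against TEff cells (vertical axis, bars SE) is plotted for the 11 genes around *Batf3* and *Atf3* by the distance in kb of their outermost annotated start from that of *Batf3* (horizontal axis). The filled points, *Batf3* at -4.45 and *Atf3* at -2.33, are DEGs, and the open points between -0.62 and 0.50 are not.

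Scaled also by gene length, as CPM per kilobase, levels can be set side by side between members. In TEff cells the order of the means was *Jund* (52.9 ± 5.50, SD, n = 3), *Junb* (43.4 ± 1.84), *Batf* (39.8 ± 1.16), *Batf3* (7.03 ± 3.02), *Jun* (5.50 ± 1.89), *Fosl2* (3.56 ± 0.780), *Atf3* (1.29 ± 0.328), *Fos* (0.386 ± 0.0947), and *Fosb* (0.137 ± 0.0924). The samples of *Batf3* and *Jun* overlapped, as did those of *Jun* and *Fosl2*, and the other neighbours did not. In TRM-like cells the order was *Jund* (58.1 ± 6.67), *Junb* (46.7 ± 13.9), *Batf* (29.6 ± 2.74), *Jun* (19.9 ± 2.91), *Fosl2* (3.65 ± 1.01), *Fos* (0.514 ± 0.0482), *Fosb* (0.376 ± 0.200), *Batf3* (0.317 ± 0.184), and *Atf3* (0.254 ± 0.0829). There *Jund* and *Junb* overlapped, as did each neighbouring pair from *Fos* down to *Atf3*. *Jun* thus stood between *Batf3* and *Fosl2* in TEff cells and between *Batf* and *Fosl2* in TRM-like cells.

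Summed on this length-scaled level, the Jun family reached 97.1, 102.3, and 105.9 in TEff and 123.4, 148.7, and 102.2 in TRM-like samples, which overlapped. The share of *Jun* in that sum was 4.66, 7.50, and 4.06% in TEff and 16.3, 15.3, and 16.6% in TRM-like samples. The Batf family summed to 48.9, 42.0, and 49.5 in TEff and 27.3, 29.6, and 32.8 in TRM-like samples, without overlap. *Batf3* held 17.97, 8.42, and 17.7% of this sum in TEff and 1.40, 0.368, and 1.40% in TRM-like samples. The Fos family was far lower, at 3.64, 4.78, and 3.82 in TEff and 4.99, 4.98, and 3.65 in TRM-like samples, and *Fosl2* held 68.0 to 92.6% of it.

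**Figure D3:**
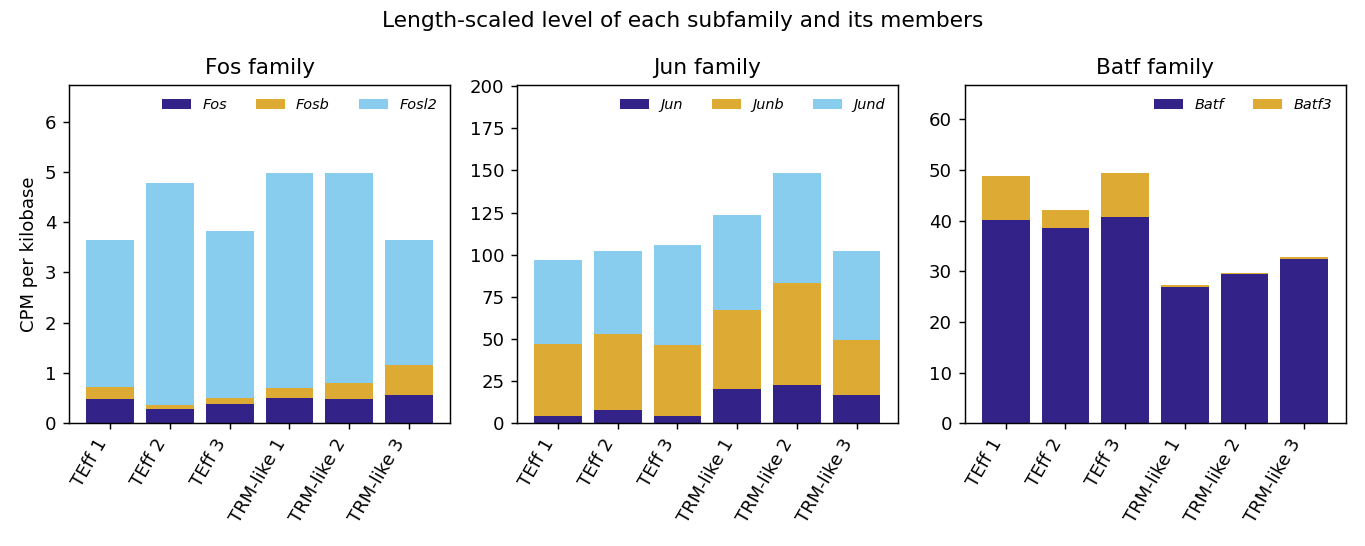
Stacked bars from 0 show the length-scaled level (CPM per kilobase) of each family in the 6 samples, divided by member, with a separate vertical scale for each family. *Jun* widened from 4.06 to 7.50% of the Jun family in TEff to 15.3 to 16.6% in TRM-like samples, and *Batf3* nearly vanished from the Batf family.

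Ratios of members within a sample do not depend on library scaling. There were 9.33, 5.93, and 9.87 times as many length-scaled *Junb* as *Jun* counts in TEff and 2.34, 2.65, and 1.93 times as many in TRM-like samples. The mean log2 ratio was 3.03 and 1.19, a difference of -1.84 (exact two-sided permutation p = 0.1, adjusted over the 5 ratios 0.167). *Jund* to *Jun* differed by -1.76 and *Batf3* to *Batf* by -4.17 on the log2 scale, each with the same exact p and adjusted p. With 3 samples against 3, 0.1 is the smallest p this test allows. *Fosl2* to *Fos* differed by -0.42 (exact permutation p = 0.6) and *Fosb* to *Fos* by 1.09 (exact permutation p = 0.2), and neither separated the groups.

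The genes most like each member across the 6 samples were found by the root mean square difference in centred log2 CPM, over 10880 protein-coding genes that reached 10 counts in each sample. For *Jun* these were *Serpina3g*, a serine protease inhibitor gene (0.17, log2 fold change 2.04), and *Pdgfb*, a growth factor gene (0.19, log2 fold change 1.94), both DEGs. *Batf* was most like *Fcsk* and *Spn*, which encodes CD43, at 0.029 and 0.033. *Fos* was most like *Ppfibp1* and *Tln2*, *Fosl2* like *Cdc42ep3* and *Pcnx1*, *Junb* like *Ppcdc* and *Dusp10*, and *Jund* like *Triap1* and *Zfp511*. None of these last 8 was a DEG, nor was *Fcsk* or *Spn*. The genes were picked for likeness over the same samples, so sharing a member's DEG status was largely set by that choice.

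Among 26 other bZIP genes, 3 rose and 1 fell (15.4%, against 3.01% of all genes tested), with a median log2 fold change of -0.082 against 0.017 over all genes tested. *Maf*, which encodes c-Maf, was measured at 1.28, 1.62, and 1.38 CPM in TEff and 12.8, 12.3, and 6.17 CPM in TRM-like samples. All TRM-like samples were higher, replicate 3 the least (log2 fold change 2.87, SE 0.31, edgeR adjusted p = 0.00189). The small Maf gene *Maff* rose by a log2 fold change of 1.19 (SE 0.25, edgeR adjusted p = 0.0362). *Nfe2l2*, whose product NRF2 pairs with small Maf proteins at antioxidant genes, rose by 0.81 on the log2 scale (SE 0.14, edgeR adjusted p = 0.0175). *Atf6*, a sensor of unfolded protein in the endoplasmic reticulum, fell from 84.1, 83.8, and 82.1 CPM to 47.9, 46.6, and 49.6 CPM (log2 fold change -0.80, SE 0.11, edgeR adjusted p = 0.0068). Of these, *Maf* stayed a DEG with any sample left out. *Atf6* was lost without TEff replicate 1 or 3 (edgeR adjusted p 0.0649 and 0.0576), and *Nfe2l2* without TEff replicate 1 or 3 or TRM-like replicate 1 or 2 (0.0664 to 0.127). *Maff* was lost without any sample but TRM-like replicate 3 (edgeR adjusted p 0.0993 to 0.208). The number of DEGs in the list was 1 without TEff replicate 1 or 3, where 1.04 and 1.08% of all genes were called. It was 3 without TEff replicate 2 (1.43% of all genes) and 2 without TRM-like replicate 1 or 2 (1.8 and 1.59%). Without TRM-like replicate 3 it was 7, where 14% of all genes were called. In the list, 5 genes were higher and 5 lower without overlap, against 10.6% and 9.72% of all genes. *Jdp2* and *Bach2*, which encode repressors that compete with AP-1, were lower without overlap but did not pass the test (log2 fold changes -0.76 and -0.92, edgeR adjusted p 0.162 and 0.125). Both were called without TRM-like replicate 3 and under the replicate block, and *Bach2* also by DESeq2 and with no filter on low counts. The small Maf gene *Mafk* went the other way, higher without overlap (log2 fold change 0.60, SE 0.14, edgeR adjusted p = 0.0702). It was called in the same alternatives as *Bach2*.

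Of the 5 partners at composite sites, *Irf8* rose, so that 1 was a DEG, against 3.01% of all genes. It was measured at 45.8, 23.5, and 46.7 CPM in TEff and 140, 143, and 123 CPM in TRM-like samples, with no overlap (log2 fold change 1.81, SE 0.25, edgeR adjusted p = 0.00511). *Irf4*, the other IRF known to bind with BATF, was measured at 140, 111, and 133 CPM in TEff and 166, 179, and 182 CPM in TRM-like samples (log2 fold change 0.46, SE 0.14, edgeR adjusted p = 0.144). Both IRF genes were higher in every TRM-like sample than in any TEff sample, an order seen for 10.6% of all genes, while *Nfatc1*, *Nfatc2*, and *Nfatc3*, which encode NFAT factors that bind next to AP-1, had log2 fold changes of -0.35 to -0.18 and overlapping groups. The median over the 5 genes was -0.18.

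**Figure D4:**
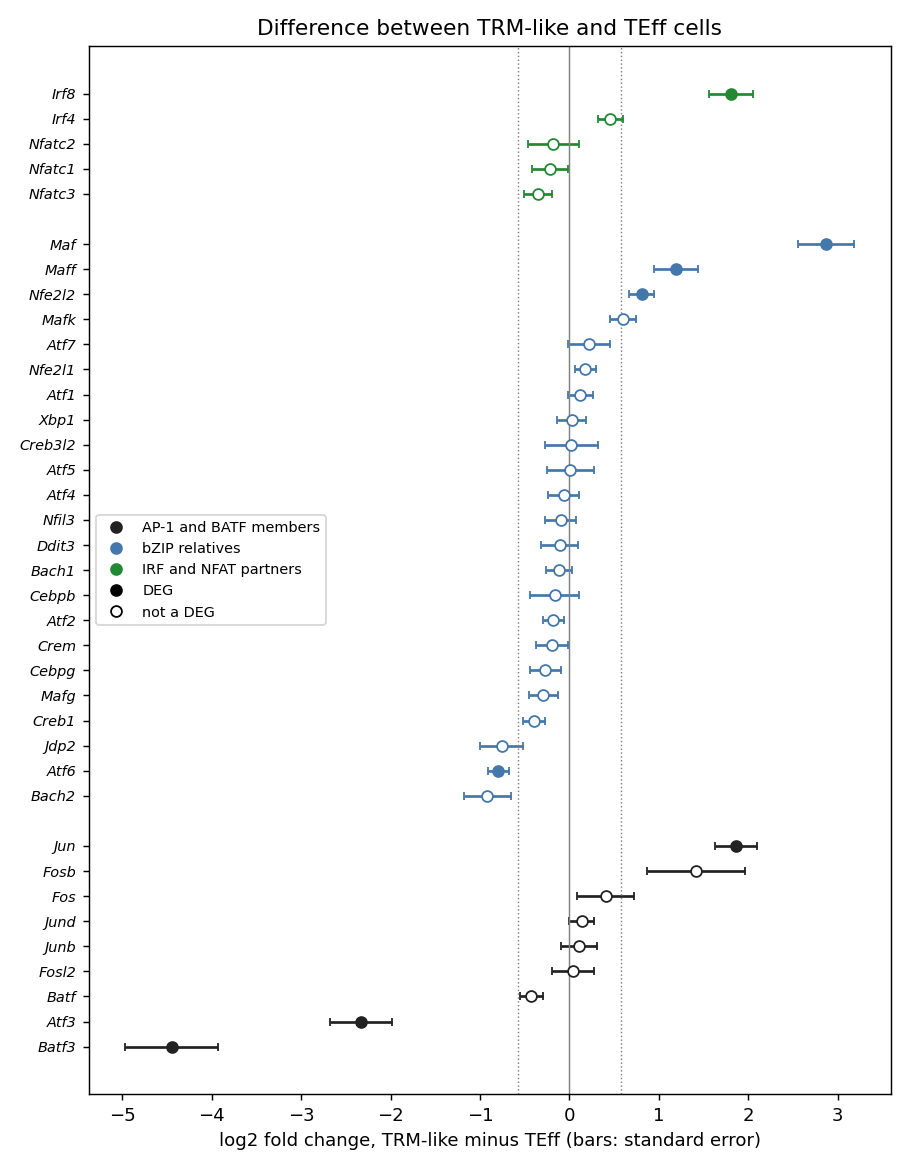
Log2 fold changes of TRM-like against TEff cells (horizontal axis, bars SE) are shown for the members (black), the other bZIP genes (blue), and the IRF and NFAT partners (green) with a mean of at least 1 CPM in either group, filled for DEGs, with dotted lines at -0.58 and 0.58. *Maf*, *Jun*, and *Irf8* lie farthest to the right among the DEGs, and *Batf3* and *Atf3* farthest to the left.

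No DEG was found among 24 tested genes for the kinases that signal to AP-1, the factors that drive *Fos* and *Jun*, and the proteins that turn Jun over (edgeR), against 3.01% of all genes. There were 7 with an unadjusted p below 0.05 (29.2%, against 14.8% of all genes), and DESeq2 and limma-voom also called 0. The smallest p belonged to *Itch*, which encodes a ubiquitin ligase of c-Jun and JunB, at 102, 108, and 95.6 CPM in TEff and 147, 154, and 136 CPM in TRM-like samples. It was higher in every TRM-like sample (log2 fold change 0.52, SE 0.13, edgeR adjusted p = 0.0702). Next was *Mapk14*, the gene of p38α, with a log2 fold change of -0.43 (SE 0.14, edgeR adjusted p = 0.196). *Mapk8* and *Mapk9*, the JNK genes of T cells, had log2 fold changes of -0.31 and 0.25 (edgeR adjusted p 0.381 and 0.372).

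Of 23 other immediate early and stress genes, 1 fell and none rose, a share of 4.35% that is near the 3.01% of all genes. *Ier3*, an early gene that modulates survival, was measured at 24.4, 28.8, and 27.0 CPM in TEff and 5.32, 4.94, and 9.12 CPM in TRM-like samples, without overlap (log2 fold change -2.05, SE 0.24, edgeR adjusted p = 0.00231). *Dusp5*, a phosphatase of nuclear ERK, had a log2 fold change of -0.55 (SE 0.13, edgeR adjusted p = 0.0581). *Egr1*, which like *Fos* answers to serum response factor, was measured at 27.4, 26.4, and 26.6 CPM in TEff and 34.3, 44.3, and 25.3 CPM in TRM-like samples, so that TRM-like replicate 3 lay below the TEff samples (edgeR adjusted p = 0.439). It was named after its values were seen. Without TRM-like replicate 3, where 14% of all genes were called, the list had 5 DEGs.

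Among 22 genes known as targets of AP-1 or BATF in T cells, 19 were tested, of which 1 rose and 3 fell (21.1%, against 3.01% of all genes). *Cd69*, an activation and retention marker, had 42.6, 39.1, and 44.8 CPM in TEff and 77.4, 79.8, and 60.9 CPM in TRM-like samples (log2 fold change 0.79, SE 0.14, edgeR adjusted p = 0.0224). *Gzmb*, the granzyme B gene, was measured at 2056, 1454, and 2317 CPM in TEff and 518, 517, and 513 CPM in TRM-like samples (log2 fold change -1.91, edgeR adjusted p = 0.0013). The checkpoint receptor genes *Havcr2* and *Ctla4* were lower in each TRM-like sample, with *Havcr2* at 19.6 to 23.9 CPM against 3.73 to 4.88 CPM and *Ctla4* at 204 to 244 CPM against 91.9 to 107 CPM. *Cd69* lost its call when any sample but TRM-like replicate 3 was left out (edgeR adjusted p 0.0906 to 0.137). In those fits 1.04 to 1.8% of all genes were called. Without TRM-like replicate 3 the list had 9 DEGs, with 14% of all genes called. The cytokine genes *Ifng*, *Tnf*, *Csf2*, and *Il2* did not pass the test, at edgeR adjusted p of 0.366 to 0.927. *Tnf* was higher in every TRM-like sample than in any TEff sample, and the groups overlapped for the others. *Csf2* was called with no filter on low counts, under the replicate block, and without TRM-like replicate 3. In those fits 4.42, 7.78, and 14% of all genes were called. These cytokine genes were named after their values were seen. The median log2 fold change of the 19 genes was -0.19.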

How the data were processed

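Libraries of total RNA (TruSeq Stranded Total RNA) from 6 samples were sequenced on a NovaSeq X Plus. The authors trimmed reads with Cutadapt 4.8, mapped and counted them per gene with Rsubread on GRCm39 and GENCODE M34, and deposited raw counts and gene lengths without normalization. The strand setting and the handling of reads with several matches are not given in the sources used here. The authors modelled an unnamed batch, which was not removed here. Symbols and places came from GENCODE M39 of the same build, which held 56620 of 57126 genes. Groups followed the labels.

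The genes counted at least once in 3 or more samples were tested with edgeR 4.0.16 in R 4.3.3 (glmQLFit and glmQLFTest, TMM), with Benjamini-Hochberg adjustment over all 26154 genes. SEs are the log2 fold change over the square root of F, and 95% intervals use the residual plus prior degrees of freedom of the fit. The test was checked on simulated data for genes with a mean of at least 10 counts. The simulation held no batch, no deviating sample, and no changes in genes with few counts, so the check does not cover these. Alternatives were DESeq2 1.42.0, limma-voom (limma 3.58.1), other scalings and filters, no threshold of size, a replicate block, and leaving out single samples. Total counts of 18319013 to 23622621 set the precision, and counting intervals cover counting error only.

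The members and lists were chosen with earlier results of these data known. Named were all members, from each list every DEG or, where 0 or 1 was called, the 2 genes with the smallest p, and the 2 genes most like each member that reached 10 counts in each sample. *Jdp2*, *Bach2*, *Mafk*, the NFAT genes, *Mapk8*, *Mapk9*, *Egr1*, *Ifng*, *Tnf*, *Csf2*, *Il2*, and the region around *Batf3* were added after their values were seen. So were the motifs TGACATCA, TGACGT, and TATAAA. Single cell type markers were also named outside this rule.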

Additional observations from a re-analysis of the deposited data

How the results depend on the processing

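The number of DEGs among the members was 3 by edgeR, DESeq2, and limma-voom, and 2 to 3 with a sample left out. It was 4 with no filter, and 1 when 10 counts were required in each sample, where *Batf3*, *Atf3*, and *Fosb* were not tested. DEGs over all genes numbered 786 by edgeR, 1256 by DESeq2, 1868 with no filter, and 263 to 3579 with a sample left out (1.04 to 14% of genes tested). The highest number was without TRM-like replicate 3. With a sample left out, the other bZIP genes had 1 to 7 DEGs, the immediate early genes 1 to 5 (3 with no filter), and the targets 3 to 9. The log2 fold change with a sample left out was -0.094 to 0.24 for *Fosl2* and -0.13 to 0.30 for *Junb*. The sign turned for *Fosl2* without TEff replicate 1 (-0.079), TRM-like replicate 1 (-0.094), or TRM-like replicate 2 (-0.077), and for *Junb* without TRM-like replicate 2 (-0.13). The cause was not tested.

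Samples were not paired by number, since the deviations of same-numbered samples from the group means correlated at -0.29, 0.31, and 0.39, and the highest correlation, 0.52, joined TEff replicate 2 and TRM-like replicate 1. Not every sample correlated best with its own number. TEff replicate 2 correlated positively with TRM-like replicates 1 and 2 (0.52 and 0.31), and TEff replicates 1 and 3 with TRM-like replicate 3 (0.31 and 0.39). All other pairs were negative (-0.49 to -0.21). Because deviations within a group cancel out, positive and negative correlations partly force one another, so the signs are not independent. With the replicate block, 2035 genes were DEGs, with 4 members (*Fosb* added), 7 other bZIP genes, 4 immediate early genes, and 7 targets. Counts below 10 limit *Fosb*, *Batf3*, and *Atf3*.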
